A study of Mus musculus with 6 samples.

Results

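The miR-19 and miR-25/92 families were followed in the renal cortex of mice through 6 mature microRNAs (miRNAs), named on the array as mmu-miR-19a, mmu-miR-19b, mmu-miR-25, mmu-miR-92a, mmu-miR-92b and mmu-miR-363, where mmu stands for mouse. They were chosen by name, without their star strands, from 599 mature mouse miRNAs on a microarray, and all 6 were on it. Total RNA came from kidney cortex of 6 individual C57Bl6 mice, 1 sample per mouse. The 3 control mice were untreated, and the labels do not describe their chow. The 3 treated mice ate a diet with 0.05% sodium and drank water that held 0.5 g/L captopril, an inhibitor of angiotensin converting enzyme, over 10 days. The regimen was given as a whole, so the diet and the drug cannot be told apart. Control replicates 1 and 2 were males and control replicate 3 a female, treated replicate 1 was a female and treated replicates 2 and 3 were males. All mice were aged 3.5 months apart from treated replicate 1, which was 5 months old. Control replicates 1 and 3 and treated replicate 2 were stained with Cy3, and the other samples with Cy5.

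MiRNAs guide the silencing machinery to messenger RNAs through their seed, the bases next to the 5′ end, so miRNAs with the same seed can share targets. Both families come largely from the miR-17 to miR-92 cluster, a set of hairpins cut from 1 long transcript, and from its paralogous clusters. MiR-19 is known as the chief oncogenic member of the cluster in mouse lymphoma, miR-92a is known in endothelium for restraining vessel growth, and loss of the cluster in nephron progenitors impairs kidney development in mice.

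The target sequences of the array are shown because the seed, in capitals, defines the families, and because the bases outside it are what tells the probes of a family apart. Each was identical to the 3p mature miRNA of that name in RefSeq (GRCm38.p6).
miR-19a: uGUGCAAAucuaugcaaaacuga
miR-19b: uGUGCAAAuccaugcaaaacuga
miR-25: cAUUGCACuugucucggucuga
miR-92a: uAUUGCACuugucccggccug
miR-92b: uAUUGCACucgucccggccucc
miR-363: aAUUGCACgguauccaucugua

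The seed of miR-19a and miR-19b was carried by these 2 of the 599 array miRNAs, and that of miR-25, miR-92a, miR-92b and miR-363 by 6, the other two being miR-32 and miR-367. With positions counted from 1 at the 5′ end, miR-19a differed from miR-19b by U11C alone. MiR-92a differed from miR-92b by U10C and G21C over 21 shared positions, and miR-25 from miR-92a by C1U, U14C and U18C. Part of the signal of such a probe can come from its near relative, which these arrays do not resolve. MiR-363 stood further off, with 11 positions differing from miR-92a and 13 from miR-25. Across the families, bases 2 to 7 of miR-19a and miR-19b (gugcaa) were the exact complement of bases 3 to 8 of the miR-25/92 members. A complementary run of at least 6 bases with miR-92a was present in 8.16% of the other miRNAs tested.

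Several members have more than 1 gene. MiR-92a is cut from both hairpins below, Mir92-1 at chr14:115044427-115044506 (plus strand, within the long non-coding RNA gene Mir17hg) and Mir92-2 at chrX:52741838-52741928 (minus strand), which are shown with the mature miRNA in capitals because a probe for it cannot tell these sources apart.
Mir92-1: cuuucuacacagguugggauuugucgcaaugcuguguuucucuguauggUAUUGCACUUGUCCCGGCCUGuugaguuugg
Mir92-2: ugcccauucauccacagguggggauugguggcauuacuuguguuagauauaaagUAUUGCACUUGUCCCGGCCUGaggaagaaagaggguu
MiR-19b likewise comes from Mir19b-1 (chr14:115044305-115044391) and Mir19b-2 (chrX:52741983-52742066). Mir19a, Mir19b-1 and Mir92-1 lay within 507 bases of chromosome 14, and Mir19b-2, Mir92-2 and Mir363 within 374 bases of the X chromosome. Mir25 (chr5:138165321-138165404, minus strand) lay within Mcm7, a gene of the replicative helicase, beside Mir93 and Mir106b. Mir92b (chr3:89227116-89227198, minus strand) had no other miRNA gene within 1 kb.

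Of the 6 members, miR-25, miR-92a and miR-92b lay above background in all 6 samples, miR-19b in 4, and miR-19a and miR-363 in none. Above background meant that the mean log2 intensity over the 5 spots of a probe lay over 3 SD above the mean empty spot, and 19.5% of the 599 miRNAs met it in all 6 samples and 59.1% in none. The median empty spot read 34.4 to 51.2 in Cy5 and 219 to 459 in Cy3, and 127 to 229 miRNAs lay above background in a sample. Tests were run on the 197 miRNAs (32.9%) that met it in 3 or more of the 6 samples, whatever their group, among them miR-19b, miR-25, miR-92a and miR-92b. Probes differ in how bright they are for the same amount of miRNA, so each member is set only against itself.

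**Figure D1:**
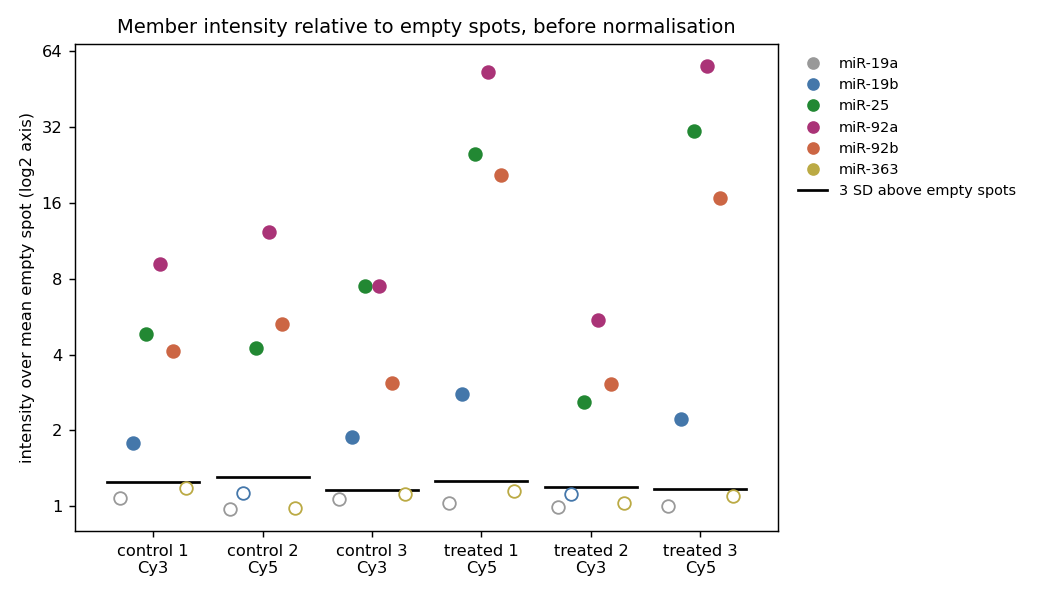
Scanner intensity of each member (mean of 5 spots) over the mean empty spot of its own sample, on a log2 axis, with 3 control and 3 treated samples along the x axis and the threshold of 3 SD as a black line. Open points were not above background: miR-19a and miR-363 in all 6 samples and miR-19b in control replicate 2 and treated replicate 2.

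Among the miR-19 pair, mmu-miR-19a had a scanner intensity of 0.972 to 1.08 times the empty spots in every sample. Its log2 normalised intensity was 6.33, 6.38 and 6.29 in control replicates 1, 2 and 3 and 6.31, 6.33 and 6.33 in treated replicates 1, 2 and 3. These values lie at the floor of the arrays, so the level of miR-19a was not measurable and no fold is given.

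The mmu-miR-19b probe, whose target differs from miR-19a by that 1 base and has a second gene on the X chromosome, had a log2 normalised intensity of 7.35, 6.86 and 7.66 in control replicates 1, 2 and 3 and of 7.17, 6.89 and 7.21 in treated replicates 1, 2 and 3. Both samples numbered 2 were the lowest, and in them the probe stood 1.13 and 1.12 times over the empty spots and was not above background, against 1.78 to 2.79 times in the other 4 samples. The groups overlapped, with means of 7.29 ± 0.40 for control and 7.09 ± 0.17 for treated mice (SD, n = 3 each). The authors' processed intensity put the same samples lowest, at 55 in each of the samples numbered 2, with 110 and 162 in the other controls and 85 and 84 in the other treated samples.

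Of the miR-25/92 family, mmu-miR-25, which is encoded within Mcm7, gave log2 normalised intensities of 9.44, 9.37 and 10.20 in control replicates 1, 2 and 3 and of 9.90, 9.44 and 10.01 in treated replicates 1, 2 and 3. Control replicate 3 was the highest and control replicate 2 the lowest, so the treated samples fell inside the range of the controls. The group means were 9.67 ± 0.46 for control and 9.78 ± 0.30 for treated mice (SD, n = 3 each).

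The miRNA mmu-miR-92a, the member with genes on chromosomes 14 and X, lay at 10.29, 11.06 and 10.12 in control replicates 1, 2 and 3 and at 10.74, 11.06 and 10.88 in treated replicates 1, 2 and 3 on the log2 scale. Control replicates 1 and 3 were below every treated sample, whereas control replicate 2 shared the top value with treated replicate 2, a tie that quantile normalisation sets. The means were 10.49 ± 0.50 for control and 10.89 ± 0.16 for treated mice (SD, n = 3 each). In the authors' processed intensity, miR-92a read 1341, 2042 and 896 in control replicates 1, 2 and 3 and 1738, 1968 and 1687 in treated replicates 1, 2 and 3, with control replicate 2 again the highest control.

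The miRNA mmu-miR-92b, which comes from a hairpin of its own on chromosome 3, lay at 9.01, 9.75 and 8.52 in control replicates 1, 2 and 3 and at 9.58, 9.80 and 9.27 in treated replicates 1, 2 and 3 on the log2 scale. It showed the same layout as miR-92a, with control replicates 1 and 3 below the treated range and control replicate 2 within it. The means were 9.09 ± 0.62 for control and 9.55 ± 0.27 for treated mice (SD, n = 3 each), and the 6 samples spanned 1.29 log2 units, the widest span of the 4 tested members.

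The miRNA mmu-miR-363, the X-linked member of this family, was not above background in any sample, at 6.41 to 6.52 on the log2 scale for control and 6.43 to 6.51 for treated mice. The 2 array miRNAs that share its seed and are no members, miR-32 and miR-367, were above background in none of the samples either. Of 6 array miRNAs with the miR-25/92 seed, 3 thus gave signal, miR-25, miR-92a and miR-92b. Star strands on the array were miR-19a*, above background in 1 sample, and miR-92a*, in none.

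**Figure D2:**
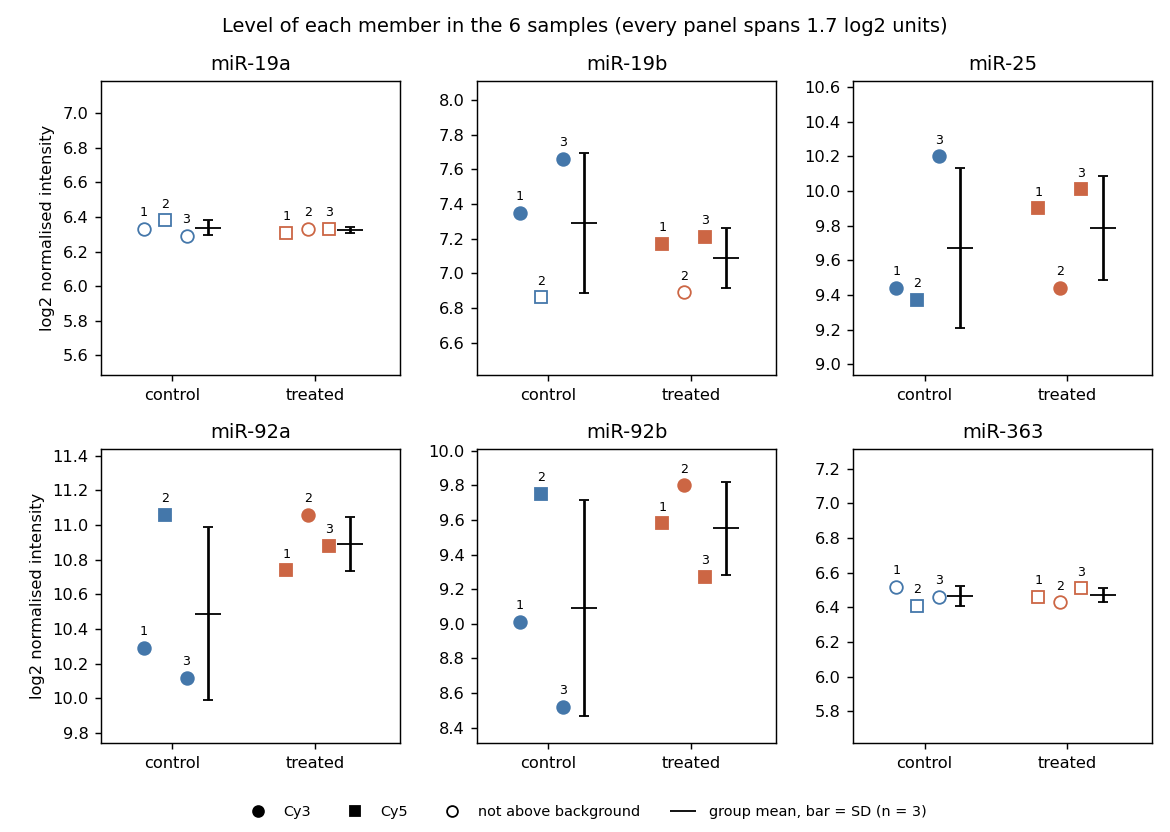
Log2 normalised intensity of the 6 members in 3 control and 3 treated samples, numbered by replicate, with circles for Cy3, squares for Cy5, open symbols where the probe was not above background, and the group mean with its SD. For miR-92a and miR-92b, control replicates 1 and 3 lie below the treated samples and control replicate 2 among them.

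Whether a regimen known to raise renin changes the miRNAs of the cortex is the question behind the comparison of both groups, and no member passed. In limma with group and dye in the model and Benjamini-Hochberg adjustment over all 197 miRNAs, 0 miRNAs (0%) had an adjusted p under 0.05 and 1 (0.508%), not a member, had an unadjusted p under 0.05. The members' differences are given with the 95% intervals of that fit.

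MiR-92b differed by 0.36 in treated minus control on the log2 scale (SE 0.39, 95% interval -0.61 to 1.32, limma adjusted p = 0.995), that is 1.28-fold with an interval of 0.654-fold to 2.50-fold. MiR-92a differed by 0.30 (SE 0.31, -0.48 to 1.09, limma adjusted p = 0.995), that is 1.23-fold with an interval of 0.715-fold to 2.13-fold. Both intervals of this fit include a 2-fold rise. The differences were below the SD between control mice (0.50 for miR-92a and 0.62 for miR-92b) though above that between treated mice (0.16 and 0.27). With the replicate number added as a fixed block, the intervals were -0.16 to 0.76 for miR-92a and -0.089 to 0.80 for miR-92b. Those include 0 but not a 2-fold rise. The blocked fit leaves 1 residual degree of freedom and rests on a pairing read from the data.

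For miR-25 the difference was 0.10 (SE 0.35, 95% interval -0.77 to 0.98) and for miR-19b -0.14 (SE 0.30, -0.88 to 0.60), both with a limma adjusted p of 0.995. These 2 intervals lay within 2-fold either way, as they did for 52.8% of all tested miRNAs. That held under some of the other settings, such as no background correction, but not under all. Without normalisation between samples the interval of miR-25 ran from -0.80 to 2.29, and with the median empty spot subtracted that of miR-19b ran from -2.42 to 1.26. The sign for miR-25 turned to -0.079 under scaling to the 75th percentile of the miRNAs above background in all samples, a setting in which the median of all tested miRNAs was -0.53. An exact two-sided permutation test of the plain group means gave p = 0.3 for miR-92b, 0.4 for miR-92a, 0.5 for miR-19b and 0.9 for miR-25, where 0.1 is the smallest that 3 against 3 samples allow.

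Of the 4 tested members 3 lay above 0, as did 47.2% of all tested miRNAs. In none of the 4 members did the groups stand apart without overlap, as they did in 4.57% of tested miRNAs. Of same-numbered pairs, miR-92b was higher in the treated sample of all 3, by 0.57, 0.049 and 0.75 in pairs 1, 2 and 3, and 14.2% of tested miRNAs were higher in all 3. MiR-92a was higher in pairs 1 and 3, by 0.45 and 0.76, and tied in pair 2. Every pair crosses the dyes, with the treated sample in Cy5 in pairs 1 and 3 and in Cy3 in pair 2, so a pair difference holds the dye difference too, with opposite sign in pair 2. Pair 1 also set a male control of 3.5 months against a treated female of 5 months, and pair 3 a female control against a treated male. Only pair 2 was alike in sex and age.

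Dye and group overlap in part, since Cy3 held a single treated sample (replicate 2) and Cy5 a single control (replicate 2). Within Cy3, treated minus control was 1.04 for miR-92b, 0.85 for miR-92a, -0.38 for miR-25 and -0.61 for miR-19b. Within Cy5 it was -0.33, -0.25, 0.59 and 0.33 in the same order. All 4 members thus had opposite signs in the dyes, as did 75.1% of tested miRNAs, and each contrast sets 1 mouse against 2. For miR-19b the lone mouse was not above background in either dye, so its within-dye values are taken against the floor of the arrays and are not measured sizes. Without treated replicate 2 the difference of miR-92a was -0.25 and that of miR-92b -0.33, and without control replicate 2 they were 0.85 and 1.04 (limma adjusted p = 0.729 for both).

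**Figure D3:**
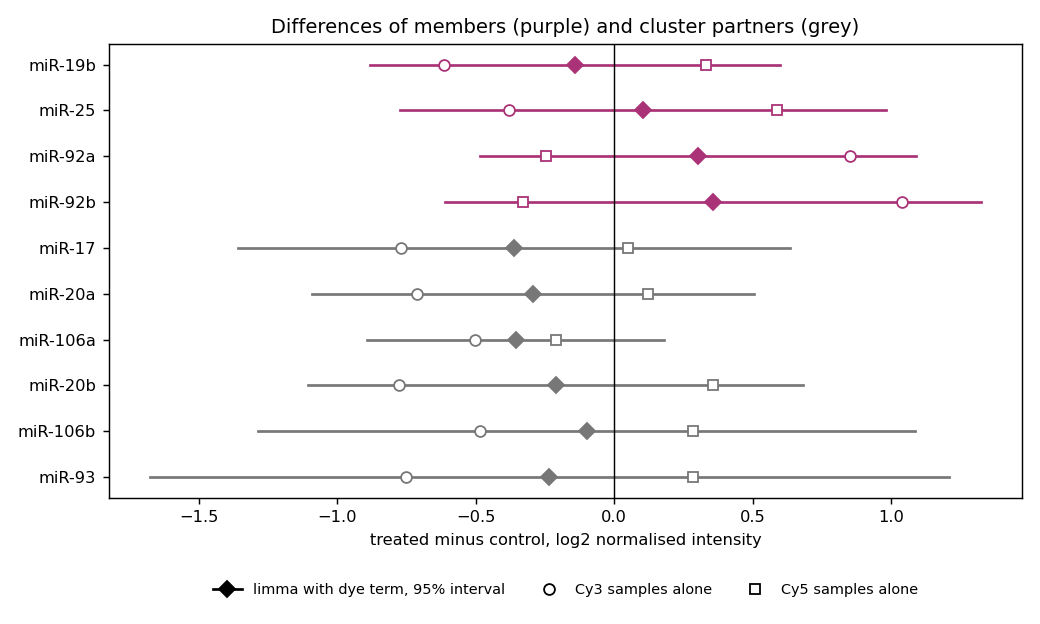
Treated minus control difference in log2 normalised intensity, from limma with a dye term and its 95% interval (diamonds), and from the Cy3 (circles) and Cy5 (squares) samples alone, for the 4 tested members and 6 tested cluster partners. Every interval includes 0, and the circles and squares lie on opposite sides of 0 for all 4 members.

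The members moved over the 6 samples in different ways. Control replicate 3 lay 0.81 below the mean of its own probe for miR-92b and 0.57 below for miR-92a, but 0.47 above for miR-19b and 0.47 above for miR-25. Control replicate 2 lay 0.43 above its mean for miR-92b and 0.37 above for miR-92a, and 0.33 below for miR-19b and 0.36 below for miR-25. The median SD over the 5 spots of a probe was 0.080 to 0.11 log2 units per member, which covers spot-to-spot error within an array and no variation of labelling, hybridisation or animals.

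MiR-92a and miR-92b, which share 19 of 21 positions, followed each other (Pearson's r = 0.932, Spearman's rho = 0.928 over 6 samples), and miR-19b ran opposite to both (r = -0.941 with miR-92a and -0.972 with miR-92b). These are descriptions with no p, because same-numbered samples were alike and the 6 samples are not independent. In the authors' processed values the 3 correlations were 0.940, -0.964 and -0.969. Without the 2 samples farthest from the median, control replicates 1 and 3, that of miR-92a with miR-92b was 0.593 in the normalised values and 0.895 in the processed ones. Without control replicates 2 and 3, miR-19b kept -0.863 with miR-92a and -0.930 with miR-92b. In both samples numbered 2, where miR-92a and miR-92b were highest, miR-19b was not above background. The low end of its relation to them thus lies at the floor, and treated replicate 2 was kept in those values. MiR-25, which shares its seed and 18 of 21 positions with miR-92a, had r = -0.470 with miR-92a, -0.633 with miR-92b and 0.729 with miR-19b. In the processed values these were -0.188, -0.224 and 0.256, so the relations of miR-25 depended on the normalisation.

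**Figure D4:**
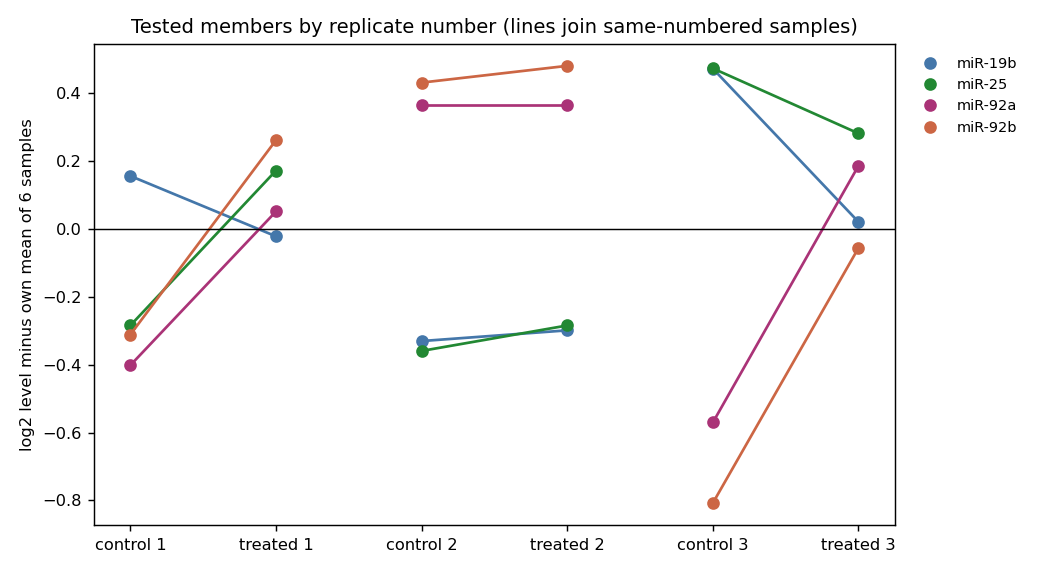
Log2 normalised intensity of the 4 tested members minus the mean of the same probe over the 6 samples, with lines joining same-numbered control and treated samples. MiR-92a and miR-92b are high in both samples numbered 2, where miR-19b and miR-25 are low, and control replicate 3 shows the reverse.

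Base composition differed between these members. G and C made up 39.1% of miR-19b, 50% of miR-25, 57.1% of miR-92a and 63.6% of miR-92b, against a median of 47.8% over tested miRNAs. Across the 197 miRNAs, which are not independent, the deviation of a sample from the mean of each probe had a Spearman's rho with the GC content of 0.144 in control replicate 3, 0.0375 in control replicate 2 and 0.0969 in treated replicate 2, and the strongest was -0.330 in control replicate 1. Treated replicate 1 had -0.205 and treated replicate 3 had 0.0272. In control replicate 1 miR-92a lay 0.40 and miR-92b 0.31 below the mean of its own probe and miR-19b 0.16 above. In treated replicate 1 the reverse held, with miR-92a 0.052 and miR-92b 0.26 above and miR-19b 0.021 below. The part of base composition in the members' levels was not tested.

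Of the 8 partners with other seeds that are made from the same clusters, miR-17, miR-20a, miR-106a, miR-20b, miR-106b and miR-93 were tested and none passed. MiR-18a was above background in 2 samples and miR-18b in none. All 6 tested partners differed by less than 0, from -0.36 for miR-17 to -0.099 for miR-106b, with a median of -0.26 against -0.011 over all 197, and 52.8% of all differences lay below 0. In 5 of the 6 the treated sample was lower in all 3 pairs, as in 16.2% of tested miRNAs. The 6 partners come from shared clusters and were read in the same 6 mice, so they are not separate observations. Without treated replicate 2 the median of the 6 was 0.20, and without normalisation between samples it was 0.089, where that of all 197 was 0.29.

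The members were also set against the miRNAs made from the same transcript. MiR-17 and miR-20a, which share the Mir17hg transcript with miR-19b and miR-92a, had r = 0.760 and 0.853 with miR-19b but -0.592 and -0.737 with miR-92a over the 6 samples. MiR-106b and miR-93, the neighbours of miR-25 within Mcm7, had r = 0.784 and 0.799 with miR-25, with rho of 0.464 and 0.515. Of the partners from other clusters, miR-20b and miR-17 had r = 0.784 and 0.759 with miR-25, with rho of 0.812 and 0.551. MiR-20a and miR-106a had r = 0.666 and 0.199 with it. In these normalised values such likeness to miR-25 was thus not particular to its neighbours. In the authors' processed values r with miR-25 was 0.715 for miR-106b and 0.647 for miR-93. There it was 0.474 for miR-17, 0.417 for miR-20b, 0.252 for miR-20a and -0.026 for miR-106a, so the order depended on the normalisation.

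The array miRNA most like miR-92b among 193 non-members was miR-486, an erythroid miRNA (r = 0.989), followed by miR-10b, which lies in a Hox cluster (r = 0.981). The closest to miR-92a were miR-125a-5p (0.950) and miR-151-5p (0.943), to miR-25 miR-429, of the epithelial miR-200 family (0.965), and miR-143, a smooth muscle miRNA (0.941), and to miR-19b miR-301a (0.974) and miR-689 (0.968). In control replicate 2 and treated replicate 2, where miR-19b was not above background, miR-301a lay at 6.28 and 6.31, near the floor. In the authors' processed values miR-143 had r = 0.625 with miR-25, while miR-486 and miR-10b had 0.965 and 0.902 with miR-92b. Correlations over 0.9 were found with 6.22% of the 193 for miR-92b, 3.63% for miR-92a, 3.11% for miR-25 and 5.18% for miR-19b. Those under -0.9 were found with 5.18%, 1.04%, 3.11% and 5.18% in the same order.

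MiR-92a is also abundant in human blood cells, so the red cell markers are given beside it. MiR-486 lay at 8.14, 9.47 and 7.22 in control replicates 1, 2 and 3 and at 9.55, 9.72 and 8.84 in treated replicates 1, 2 and 3, and had r = 0.922 with miR-92a. MiR-451 had r = 0.680 with miR-92a and 0.711 with miR-92b, and miR-144 was above background in none of the samples. Of the 3 red cell markers 2 were tested, with differences of 0.80 for miR-451 and 0.89 for miR-486, neither of which passed. The log2 of the summed level of all 3, miR-144 included, ran from 9.34 to 10.78 in control and from 11.04 to 11.24 in treated samples. These ranges do not overlap, as held for 4.57% of single tested miRNAs. Probes differ in brightness, so the brighter ones weigh more in such a sum. Of 5 leukocyte markers 2 were tested. The summed level of all 5, untested ones included, was 10.20 to 11.06 in control and 10.66 to 11.10 in treated samples. The tested miRNAs, miR-150 and miR-146a, differed by 0.46 and -0.13, neither of which passed. MiR-150 had r = 0.917 with miR-92b and miR-146a 0.576, with rho of 0.841 and 0.257. Both miR-142 strands were above background in none of the samples. The part of blood cells in the levels of miR-92a and miR-92b was not tested, and in bulk cortex fewer cells of a type and less RNA per cell cannot be told apart.

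Markers of the tissue were read as well. The tubule list had all 6 of its miRNAs in the test and 0 calls, with 4 differences above 0 and 2 below and a median of 0.12, from -0.46 for miR-192, abundant in the tubule, to 0.45 for miR-10a. In this list r with miR-92b was 0.981 for miR-10b, 0.899 for miR-10a and 0.870 for miR-200b, but -0.918 for miR-192 and -0.661 for miR-194. High correlations with miR-92b were thus not particular to the blood cell markers. The brain miRNA miR-124 was above background in none of the samples, and the liver miRNA miR-122 in 3 of 6. The striated muscle miRNAs miR-1 and miR-133a were above background in 2 samples and in 1, with miR-1 reaching 8.96 in a control sample and at most 6.95 in treated samples.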

How the data were processed

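Renal cortex of 6 mice was profiled for 599 mature miRNAs with 5 spots each. Per the labels' protocols, small RNAs were tailed, tagged and stained with Cy3 or Cy5 by a service provider. Per the file headers, the deposited spot tables hold linear mean intensity per spot. The 669 empty spots are far from 0, which was taken to mean that no background had been subtracted. A deposited table of the authors' processed intensity, whose scale and centring are not given in the sources used here, served as an alternative (log2 with a pseudocount of 1). Across tested miRNAs its columns followed the scanner intensity of their own sample best (Spearman's rho 0.995 to 0.999).

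In R 4.3.3 with limma 3.58.1, intensity was corrected with normexp (offset 50), log2 values were averaged over spots, and samples were quantile-normalised over all 599 miRNAs. Treated and control samples were compared with lmFit and eBayes (group and dye, two-sided, Benjamini-Hochberg over 197 miRNAs), and the script was tested on simulated data. The number of samples limits the precision. Alternatives covered background, normalisation, filter, dye, replicate block, spot summary, processed values and left-out samples.

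The labels number replicates 1, 2 and 3 in each group without saying what a number marks. After the group mean was subtracted, samples of the same number had r = 0.447, 0.460 and 0.781 across tested miRNAs. As each was over 0.1, the numbers were treated as pairs. This rests on the data alone, and 2 of the unlike-numbered combinations also passed 0.1 (0.256 and 0.246). Same-numbered samples carried opposite dyes and also correlated over the empty spots (Spearman's rho 0.494, 0.529 and 0.356). Unlike-numbered combinations ran from -0.011 to 0.418 there. The 0.418, of control replicate 1 with treated replicate 2, was above the 0.356 of the samples numbered 3. Whether they shared an array is not settled here, since the series' design text gives each replicate its own. The main fit has no block.

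The members, partner lists and markers were chosen with earlier results of these data known. Named miRNAs are the members, their cluster partners, relatives by seed, markers, and for each tested member the 2 others with the highest Pearson's r. Sequences and positions come from the array files and RefSeq (GRCm38.p6), matched by name and sequence.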

Additional observations from a re-analysis of the deposited data

How the results depend on the processing

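No miRNA was called under any of the 21 alternatives with a test, and no member passed in any of them, with the smallest adjusted p of a member at 0.408 (miR-92a and miR-92b, limma with the replicate number as a random block). With the replicate number as a fixed block beside the dye the differences stay as they were, the adjusted p of both was 0.764, and no call changed. The count of miRNAs with an unadjusted p under 0.05, 1 as reported, was 15 with the fixed and 20 with the random block, 8 without a filter, 8 with the 75th percentile taken over all probes (chosen after seeing the data), 3 without a dye term, and 0 to 12 with samples left out. Direction held for miR-92a, miR-92b and miR-19b under every alternative that used both dyes with all 6 samples, over which miR-92a ran up to 0.90 and miR-19b down to -0.90. The 0.90 came without normalisation between samples, where the median of all tested miRNAs was 0.29. The -0.90 came under 75th percentile scaling, where that median was -0.53. Relative to the median they were 0.61 and -0.38. MiR-25 turned to -0.079 under 75th percentile scaling and reached 0.74 without normalisation. In the Cy3 samples alone the differences were -0.61 (miR-19b), -0.38 (miR-25), 0.85 (miR-92a) and 1.04 (miR-92b), and in the Cy5 samples alone 0.33, 0.59, -0.25 and -0.33. These are also the extremes with samples left out, -0.61 to 0.33 for miR-19b, -0.38 to 0.59 for miR-25, -0.25 to 0.85 for miR-92a and -0.33 to 1.04 for miR-92b. They occur without treated replicate 2 or control replicate 2, where 1 mouse stands for its group in the dye-adjusted difference. MiR-25 was also -0.058 without both samples numbered 1. Leaving out both samples numbered 2 gave no value, since dye and group then coincide. Signal over background limits miR-19a and miR-363 in all samples and miR-19b in both samples numbered 2.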
